A study of Homo sapiens with 12 samples.

Results

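The transcripts of 10 BCL2 family genes were followed: the guardians BCL2L1 (whose main protein is BCL-XL) and MCL1, the effectors BAX and BAK1, and the BH3-only genes BCL2L11 (BIM), BID, BBC3 (PUMA), PMAIP1 (NOXA), BIK and BAD. They were given by name and found by pairing the gene IDs of the count files with symbols. All 10 were among the 57820 gene IDs listed, and all 10 passed the filter on low counts that left 16999 genes for testing. Splicing events of the same genes were taken from the event files, where 40 events carried the name of 1 of 5 of them.

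BCL2 family proteins control mitochondrial apoptosis. BAX and BAK1 open pores in the outer mitochondrial membrane and release cytochrome c, guardians such as BCL-XL and MCL1 hold them in check, and BH3-only proteins either activate the pore formers or occupy the guardians. Carcinoma cells often depend on BCL-XL and MCL1 for survival, and MCL1 is a short-lived protein whose level follows its transcript and its breakdown closely.

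The cells were AsPC-1, an established human pancreatic cancer line. Each of the 4 groups had 3 replicates, named A, B and C: normoxia siControl (scrambled siRNA, 21% O2), normoxia siARNT (siRNA against ARNT, 21% O2), hypoxia siControl (scrambled siRNA, 1% O2 for 24 h) and hypoxia siARNT (siRNA against ARNT, 1% O2 for 24 h). All groups received a lipid-delivered siRNA, the cultures were split on the next day, and RNA was taken 48 h after transfection, so hypoxia covered the later part of that time. ARNT is the partner that HIF alpha subunits and the AHR protein need to bind DNA, and the design asks which responses to low oxygen need it. As a model the study holds 1 line and a knockdown that leaves some ARNT in place, and the replicates were triplicate wells of it, so p-values measure only the spread between these wells.

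Gene counts totalled 38.53 to 84.34 M per library. ARNT ranged from 60.7 to 63.6 CPM (counts scaled by library size and TMM factor) in normoxia siControl and 12.8 to 14.0 in normoxia siARNT, and from 64.9 to 72.2 in hypoxia siControl and 14.1 to 16.0 in hypoxia siARNT, so the siRNA groups did not overlap. All 6 HIF targets checked rose with hypoxia in siControl at an edgeR adjusted p under 0.05, which 25.3% of all genes passed. EGLN3 (log2 fold change 3.29), CA9 (3.27) and NDRG1 (3.09) rose the most. In siARNT 3 of 6 rose at that threshold, ANKRD37 (2.50), NDRG1 (0.77) and EGLN3 (0.71), where 4.09% of all genes passed. By sign alone 5 of the 6 were higher there and 1 was lower. The 8 ductal and epithelial markers summed to between 5910 and 10000 CPM, and leukocyte, endothelial and acinar markers to below 1 CPM (0.0 to 0.966). Of 5 fibroblast markers LUM alone was abundant, at 578 ± 13.2 CPM in hypoxia siControl and 381 ± 40.4 to 426 ± 27.2 in the other groups, while COL1A1 and COL1A2 had at most 8 and 10 counts in a library. The slope of counts on gene GC content differed between libraries and was steepest in normoxia siARNT replicate B (0.455 log2 units per 10 percentage points of GC) and hypoxia siARNT replicate C (0.26), against -0.226 to 0.136 in the other 10. In normoxia the siARNT slopes (0.003, 0.455 and -0.007) all lay above the siControl slopes (-0.226, -0.045 and -0.19). The slope was thus confounded with knockdown in normoxia. In bulk RNA, fewer cells with a transcript and less of it per cell cannot be told apart.

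Per length, the order of the 10 genes was led by the guardians. As means over 12 libraries in CPM per kilobase of merged exons, MCL1 stood at 77.6, BCL2L1 at 43.6 and PMAIP1 at 28.5. BAK1 (8.68), BCL2L11 (7.51), BAX (6.09), BIK (5.58) and BID (3.26) formed a middle range, and BAD (1.32) and BBC3 (0.237) were scarce. In every group the lowest MCL1 library lay above the highest BCL2L1 library and every BCL2L1 library above every PMAIP1 library on this scale, whereas BAK1, BCL2L11, BAX and BIK had neighbouring group means within their spread in at least 1 group. The libraries of BIK, BID, BAD and BBC3 kept that order in each group without overlap. In normoxia siControl, for example, BAK1 was at 8.26 ± 0.562 CPM per kilobase, BCL2L11 at 6.78 ± 0.213, BAX at 5.69 ± 0.588 and BIK at 4.87 ± 0.221 (SD, n = 3).

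**Figure D1:**
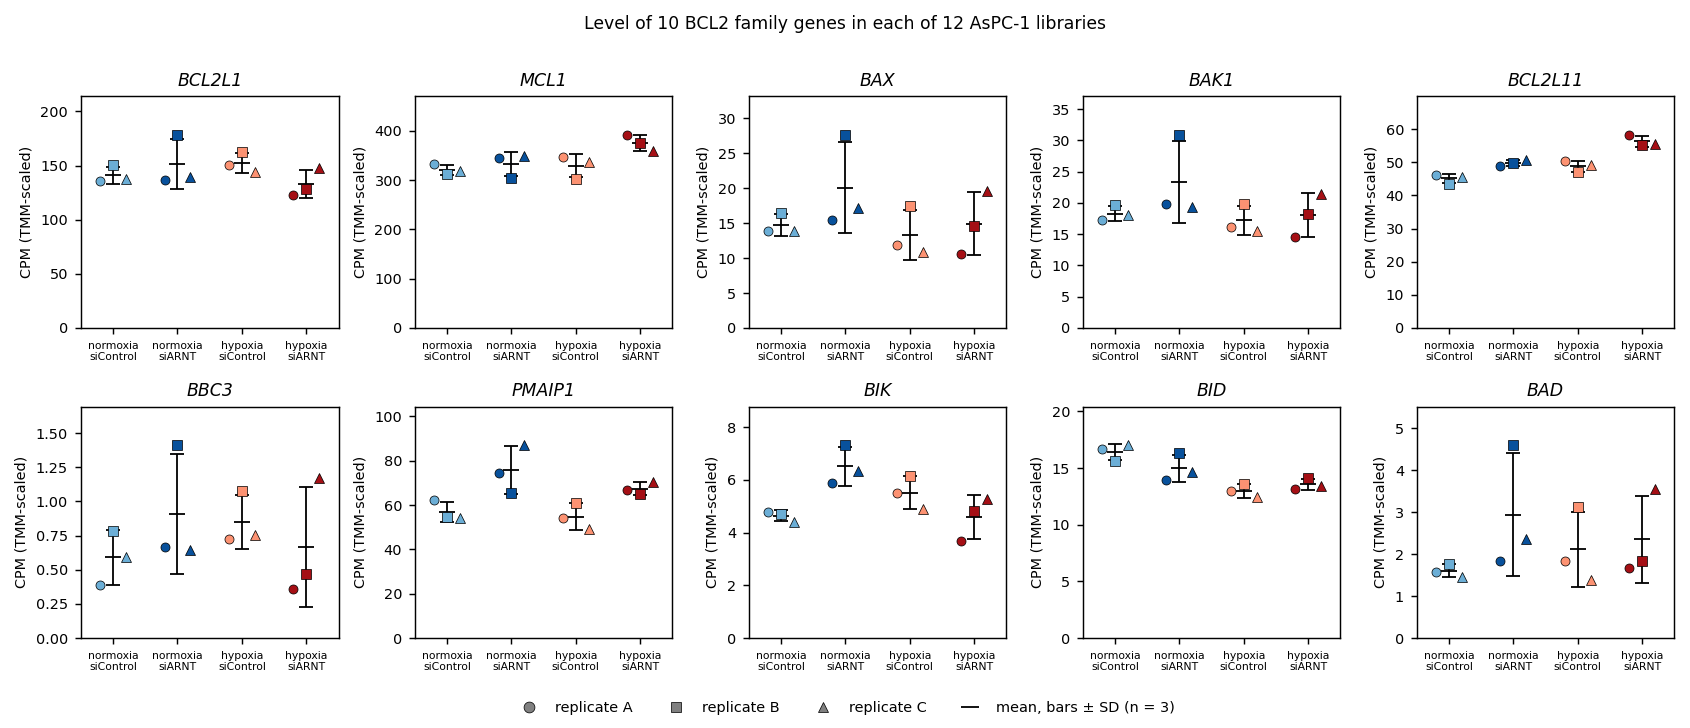
Level of each of the 10 genes in CPM (vertical axis, TMM-scaled, 1 panel a gene) by group (horizontal axis), with a point for each replicate and bars for the mean and SD (n = 3). BID sits lowest in hypoxia siControl, PMAIP1 is higher with siARNT than with siControl at both oxygen levels, and BAX, BAK1, BBC3 and BAD have their highest library in normoxia siARNT replicate B.

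Each comparison was tested with edgeR on all 16999 genes, and a gene was called at a Benjamini-Hochberg adjusted p under 0.05. Hypoxia in siControl called 1 of the 10, BID, which fell, where 25.3% of all genes were called, 10.4% higher and 14.9% lower. Hypoxia in siARNT called 0 of 10 (4.09% of all genes). An unadjusted p under 0.05 was held by 3 of the 10 and by 3605 of all 16999 genes. DESeq2 called 1 of the 10 there, beside 524 of all genes higher and 469 lower. Knockdown of ARNT called 2 of 10 in normoxia, PMAIP1 and BIK, which rose (20.2% of all genes, 9.42% higher and 10.8% lower), and 1 of 10 in hypoxia, BCL2L11, which rose (29.1% of all genes, 14.4% higher and 14.7% lower). The interaction, taken as the response to hypoxia under siARNT less the response under siControl, called 0 of 10 in edgeR (4.69% of all genes). Its unadjusted p was under 0.05 for 1 of the 10 and for 3543 of all genes. DESeq2 called 1 of the 10 for it, beside 548 of all genes higher and 503 lower. With the replicate letter as a block, edgeR called 1 of 10 (27.9% of all genes), 0 (5.07%), 2 (27.8%), 2 (31.9%) and 1 (5.65%) in the same order of comparisons. No difference between the share of the 10 and the share of all genes was tested. Their median log2 fold changes were 0.07, -0.25, 0.38, 0.11 and -0.29 in that order, against 0.02, -0.04, 0.01, 0.02 and -0.02 over all genes.

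Among the guardians, BCL2L1 (ENSG00000171552.8, chr20:31664452-31723989, minus strand, GRCh38) was at 136, 150 and 138 CPM in replicates A, B and C of normoxia siControl and at 137, 178 and 140 in normoxia siARNT. In hypoxia it was at 151, 162 and 144 CPM in siControl and 123, 129 and 148 in siARNT. Normoxia siARNT replicate B was the highest of the 12, and the groups overlapped in every comparison. BCL2L1 was not called in edgeR: its log2 fold change was 0.11 (SE 0.10, adjusted p 0.499) for hypoxia in siControl and -0.19 (SE 0.10, adjusted p 0.196) for siARNT in hypoxia. Without normoxia siARNT replicate B and hypoxia siARNT replicate C, the pair of libraries with the steepest GC slopes, the latter was -0.27 (adjusted p 0.00667), and with a GC correction it was -0.25 (adjusted p 4.42e-05). An antisense gene, ABALON, overlaps 43.0% of the exon bases of BCL2L1 and has no row in the count files, and whether counting used strand is not given in the sources used here.

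BCL2L1 makes a long form (BCL-XL, which protects cells) and a short form (BCL-XS, which opposes it) from a pair of 5′ splice sites in its first large coding exon. The stretch between them is 189 bases, a multiple of 3, at chr20:31721655-31721843 (minus strand, GRCh38, exon 2 of 3 of transcript BCL2L1-201 in GENCODE 29), and 56.1% of it is G or C. It is printed because the short form lacks it; capitals mark the stretch and lower case the 15 bases of coding sequence on either side.
BCL2L1 alternative stretch: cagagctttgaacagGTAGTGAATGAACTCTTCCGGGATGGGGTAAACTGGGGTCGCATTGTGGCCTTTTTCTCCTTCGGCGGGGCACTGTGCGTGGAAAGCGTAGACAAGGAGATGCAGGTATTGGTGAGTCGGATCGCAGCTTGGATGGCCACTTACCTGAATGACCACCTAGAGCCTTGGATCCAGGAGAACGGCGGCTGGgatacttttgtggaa
The stretch begins with GT, as a 5′ splice site does when the upstream site is used.

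The share of BCL-XS among the reads over both sites was small in all 12 libraries. It was 8.63, 5.7 and 5.3% in replicates A, B and C of normoxia siControl, 8.37, 6.35 and 8.56% in normoxia siARNT, 7.42, 9.51 and 8.77% in hypoxia siControl, and 4.69, 6.56 and 6.82% in hypoxia siARNT. Over 12 libraries 322 reads joined at the short site and 4060 at the long one. The groups overlapped except for siARNT in hypoxia, where all 3 siARNT libraries lay below all 3 siControl libraries (6.02 ± 1.16% against 8.57 ± 1.06%; SD, n = 3), as 11.7% of all tested events and 5 of the 33 of the family were separate there. That difference was not called in edgeR over 43013 events (change in log2 odds -0.51, SE 0.29, adjusted p 0.829), nor was hypoxia in siControl (0.35, SE 0.27, adjusted p 0.907).

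MCL1 (ENSG00000143384.8, chr1:150574551-150579738, minus strand, GRCh38) was the most abundant of the 10. It was at 331, 312 and 318 CPM in replicates A, B and C of normoxia siControl and 344, 304 and 349 in normoxia siARNT, and at 347, 302 and 336 in hypoxia siControl and 391, 376 and 358 in hypoxia siARNT. The 3 hypoxia siARNT libraries were the highest of the 12, and they overlapped neither hypoxia siControl nor normoxia siARNT, a pattern that 40.3% and 22.2% of all genes had in those comparisons. MCL1 was not called by edgeR for siARNT in hypoxia (0.19, SE 0.071, adjusted p 0.0631) or for hypoxia in siARNT (0.17, SE 0.071, adjusted p 0.184). For siARNT in hypoxia MCL1 was called in 6 of 21 alternatives, with adjusted p up to 0.29 over the 21. Among others it passed with the replicate letter as a block (0.19, adjusted p 0.0275), with a GC correction (0.20, adjusted p 0.000291) and without normoxia siARNT replicate B (0.19, adjusted p 0.0333). Same-letter libraries deviated together in only 1 of 3 pairs in this comparison. Hypoxia in siControl changed it by 0.04 (SE 0.071, adjusted p 0.75).

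MCL1 also has a skipped exon, and the form without it (MCL1-S) loses the region that guards against BAX and BAK1. The exon is exon 2 of 3 in transcript MCL1-202 (GENCODE 29), 248 bases at chr1:150578244-150578491 (minus strand, GRCh38), not a multiple of 3 and 45.2% G or C. It is printed as the alternative piece of the main guardian transcript; capitals mark the exon and lower case the 15 bases joined to it on either side.
MCL1 exon 2: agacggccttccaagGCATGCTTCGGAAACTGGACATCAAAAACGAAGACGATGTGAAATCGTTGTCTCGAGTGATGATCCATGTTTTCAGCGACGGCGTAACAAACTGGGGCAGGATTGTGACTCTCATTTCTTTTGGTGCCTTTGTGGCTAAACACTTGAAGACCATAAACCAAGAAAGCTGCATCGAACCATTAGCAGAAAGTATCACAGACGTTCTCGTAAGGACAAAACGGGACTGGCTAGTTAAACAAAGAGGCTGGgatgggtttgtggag

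Nearly all MCL1 transcripts held exon 2. Its inclusion was 98.4, 99.7 and 99.8% in replicates A, B and C of normoxia siControl, 99.0, 98.8 and 99.1% in normoxia siARNT, 99.0, 99.5 and 99.2% in hypoxia siControl, and 99.8, 98.7 and 99.8% in hypoxia siARNT. Over 12 libraries 6032 reads supported inclusion and 50 supported skipping, and normoxia siControl replicate A held 10 of the skipping reads. The groups overlapped for hypoxia in siControl, where the change in log2 odds was -0.02 with an SE of 1.1, so a change of about that size in either direction was not detectable at this depth.

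**Figure D2:**
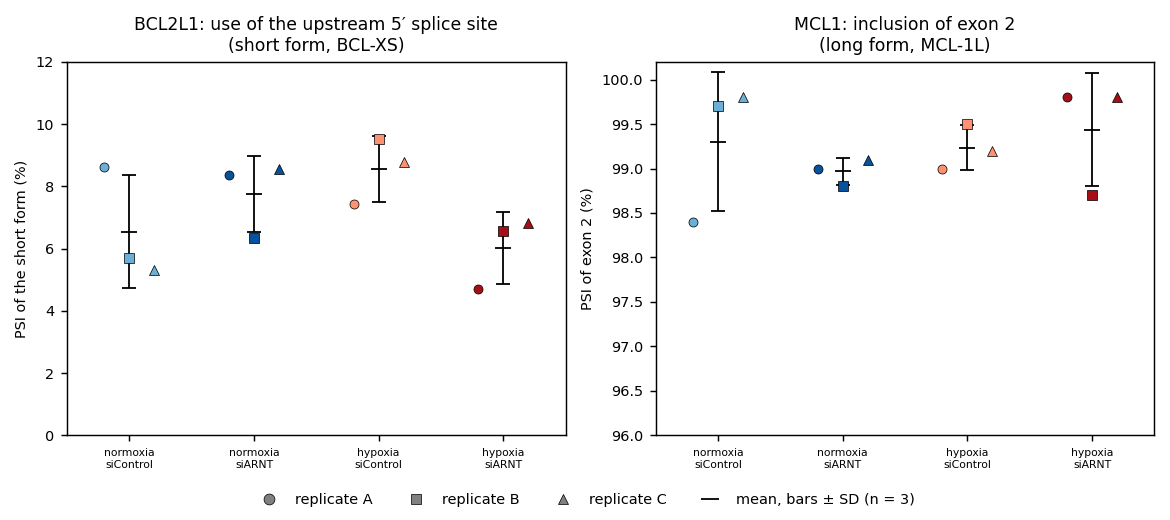
Share of the BCL2L1 short form (left, percent, axis from 0 to 12) and inclusion of MCL1 exon 2 (right, percent, axis starting at 96) by group, with a point for each replicate and bars for the mean and SD (n = 3). BCL-XS stays between 4.69 and 9.51% and MCL1 exon 2 between 98.4 and 99.8% in all 12 libraries.

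No other splicing event of the family was called. Of the 40 events 33 had enough reads to test: 11 of 12 for BCL2L1, the 1 for MCL1, 11 of 13 for BAX, 9 of 13 for BCL2L11 and the 1 for BIK. In edgeR 0 of 33 were called in each of the 5 comparisons, where 0.0256%, 0.0%, 0.119%, 0.079% and 0.0% of all events were called. An unadjusted p under 0.05 in edgeR was reached by 0, 2, 2, 0 and 1 of the 33, counts not taken over all events. With limma 0 of 33 were called in each comparison, where it called 0.0372%, 0.0395%, 0.0209%, 0.0372% and 0.0488% of all events, and with the replicate letter as a block in edgeR likewise 0, where the block called 0.914%, 0.556%, 1.18%, 0.646% and 0.0186% of all events. The largest change in mean inclusion was that of a BCL2L11 exon, which stood at 100% in all 3 normoxia siARNT libraries and at 75.0, 83.7 and 91.5% in hypoxia siARNT replicates A, B and C. Its groups did not overlap, as was so for 10.0% of all events. It rested on 18 skipping reads over 12 libraries and was not called (edgeR, p 0.007, adjusted p 0.955). In BCL2L1, an alternative 3′ splice site with 2714 reads was used at 45.5% in normoxia siControl against 40.9% in hypoxia siControl and 41.0% in normoxia siARNT. Those groups did not overlap, as 11.7% and 14.0% of all events did not in these comparisons, and neither difference was called (edgeR, adjusted p 0.888 and 0.676). Among BCL2L1 events the widest range over the 12 libraries was that of another alternative 3′ splice site, 30.8 to 81.2% over 239 reads.

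Among the effectors, BAX (ENSG00000087088.15, chr19:48954815-48961798, plus strand, GRCh38) was at 13.8, 16.5 and 13.8 CPM in replicates A, B and C of normoxia siControl and 15.5, 27.6 and 17.2 in normoxia siARNT, and at 11.8, 17.4 and 10.8 in hypoxia siControl and 10.5, 14.6 and 19.6 in hypoxia siARNT. BAK1 (ENSG00000030110.8, chr6:33572547-33580293, minus strand, GRCh38) was at 17.2, 19.6 and 18.0 CPM in normoxia siControl and 19.8, 30.8 and 19.3 in normoxia siARNT, and at 16.2, 19.8 and 15.5 in hypoxia siControl and 14.5, 18.2 and 21.4 in hypoxia siARNT. Both genes were high in the same libraries, normoxia siARNT replicate B and hypoxia siARNT replicate C, and their groups overlapped in every comparison. Neither was called by edgeR. BAX changed by -0.14 (SE 0.27, adjusted p 0.747) and BAK1 by -0.09 (SE 0.19, adjusted p 0.78) with hypoxia in siControl. Their values moved with the GC slope of the library: with a GC correction, BAX fell by 0.34 (SE 0.075, adjusted p 0.00142) and BAK1 fell by 0.23 (SE 0.049, adjusted p 0.00113) in that comparison.

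BID, cut by caspase-8 into an activator of BAX and BAK1, was the only member called for hypoxia in siControl, where it fell. BID (ENSG00000015475.14, chr22:17734138-17774770, minus strand, GRCh38) was at 16.7, 15.6 and 17.0 CPM in replicates A, B and C of normoxia siControl and 12.9, 13.6 and 12.4 in hypoxia siControl. All 3 hypoxia libraries lay below all 3 normoxia libraries, as 46.8% of all genes separated in 1 direction or the other. The log2 fold change was -0.34 (SE 0.082, edgeR adjusted p 0.00964), a fold of 0.789. It stayed between -0.38 and -0.30 over 22 alternative settings and lost the call in 2, with no filter on low counts (adjusted p 0.066) and without normoxia siControl replicate C (adjusted p 0.0538).

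Under siARNT, BID was at 14.0, 16.3 and 14.6 CPM in normoxia and 13.2, 14.1 and 13.4 in hypoxia. These groups overlapped, and the change of -0.14 was not called (edgeR, adjusted p 0.353). The difference between both hypoxia changes was 0.20 (SE 0.12) and was not called either (edgeR, adjusted p 0.352), so the fall is not shown to depend on ARNT.

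BCL2L11, which encodes BIM, an activator that also occupies the guardians, was the only member called for siARNT in hypoxia, where it rose. PMAIP1 (0.30, edgeR adjusted p 0.0557) and MCL1 (0.19, edgeR adjusted p 0.0631) had changes of like or larger size there and were not called. BCL2L11 (ENSG00000153094.17, chr2:111119378-111168447, plus strand, GRCh38) was at 50.3, 47.0 and 49.3 CPM in replicates A, B and C of hypoxia siControl and 58.3, 55.1 and 55.5 in hypoxia siARNT. These groups did not overlap, as was so for 40.3% of all genes. The log2 fold change was 0.20 (SE 0.053, edgeR adjusted p 0.0128), a fold of 1.15. The call was lost in 3 of 21 alternatives: with no filter on low counts (adjusted p 0.177), without hypoxia siARNT replicate A (adjusted p 0.0627) and without hypoxia siControl replicate B (adjusted p 0.0696).

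In normoxia BCL2L11 was at 46.2, 43.5 and 45.7 CPM in siControl and 48.9, 49.7 and 50.8 in siARNT. The groups were separate in all 4 comparisons of 2 groups, as 46.8% and 22.2% of all genes were for hypoxia (siControl, then siARNT) and 46.5% and 40.3% for knockdown (normoxia, then hypoxia), though the other changes, 0.11 for hypoxia in siControl, 0.18 for hypoxia in siARNT and 0.14 for siARNT in normoxia, were not called (edgeR, adjusted p 0.14, 0.0821 and 0.0751). With a GC correction all 4 were called, at 0.19, 0.17, 0.22 and 0.21 (edgeR, adjusted p 0.000893, 0.00467, 0.000296 and 0.000298). The long noncoding gene MIR4435-2HG lies antisense to 10.9% of its exon bases and held 15870 counts over 12 libraries, so its reads could not be told apart if counting ignored strand.

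BBC3 (PUMA, a p53 target that binds all guardians; ENSG00000105327.11, chr19:47220822-47232766, minus strand, GRCh38) was the scarcest, with 19 to 82 counts per library. It was at 0.39, 0.787 and 0.594 CPM in replicates A, B and C of normoxia siControl and 0.666, 1.41 and 0.647 in normoxia siARNT, and at 0.724, 1.07 and 0.751 in hypoxia siControl and 0.359, 0.469 and 1.17 in hypoxia siARNT. The groups overlapped, with normoxia siARNT replicate B and hypoxia siARNT replicate C highest in their groups. The interaction had the largest size among the 10, -1.02, with an SE of 0.64 (edgeR, adjusted p 0.38). The change of BBC3 with siARNT in hypoxia was -0.37 (edgeR, adjusted p 0.594). It was called in 2 of 21 alternatives and ran from -1.04 to -0.04 over them: it was -1.03 without both of those libraries (adjusted p 0.0253), -1.04 without hypoxia siARNT replicate C alone (adjusted p 0.109) and -0.04 without hypoxia siARNT replicate A (adjusted p 0.954).

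PMAIP1, which encodes NOXA, a BH3-only protein that binds MCL1 above all and promotes its breakdown, was higher with knockdown. PMAIP1 (ENSG00000141682.11, chr18:59899948-59904306, plus strand, GRCh38) was at 62.2, 54.5 and 54.1 CPM in replicates A, B and C of normoxia siControl and 74.5, 65.6 and 87.0 in normoxia siARNT. In hypoxia it was at 54.3, 61.2 and 49.1 in siControl and 67.0, 64.9 and 70.4 in siARNT. At both oxygen levels all 3 siARNT libraries lay above all 3 siControl libraries, as 46.5% and 40.3% of all genes separated in either direction. In normoxia the log2 fold change was 0.41 (SE 0.11, edgeR adjusted p 0.0211), a fold of 1.33. In hypoxia it was 0.30 (SE 0.11) and missed the threshold (edgeR, adjusted p 0.0557). It was called in 7 of 21 alternatives there, with adjusted p from 0.02 to 0.208, among them without hypoxia siControl replicate B (adjusted p 0.0445), normoxia siARNT replicate B (adjusted p 0.02) or normoxia siARNT replicate C (adjusted p 0.0316).

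The difference between both knockdown changes of PMAIP1 was -0.11 and was not called (edgeR, adjusted p 0.688). The normoxia call was lost in 4 of 21 alternatives, with only the 6 samples compared (adjusted p 0.0531) and without normoxia siARNT replicate C (adjusted p 0.0575), normoxia siControl replicate B (adjusted p 0.0673) or normoxia siControl replicate C (adjusted p 0.103). With a GC correction it was 0.54 (adjusted p 0.00639), and without both libraries of steep GC slope 0.49 (adjusted p 0.00355).

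ARNT binds DNA with AHR at GCGTG and with HIF alpha subunits at ACGTG or GCGTG, so the promoters were searched for these letters on both strands. A GCGTG match therefore does not tell the partners apart. In the 250 bases before the start, 18.5% of 35116 RefSeq promoters (GRCh38.p14) held ACGTG and 32.2% held GCGTG. The 10 genes had 14 promoters in that table, of which 4 held ACGTG (in BAX, BBC3 and BID) and 7 held GCGTG (in BCL2L1, BCL2L11, PMAIP1, BID and BAD), and MCL1 and BIK were not in the table. Windows of BID overlap one another, as do those of BAD, so the same match is counted more than once in these counts. The PMAIP1 window held 2 GCGTG matches, of which 1 lies before the GENCODE 29 start. The upstream bases of PMAIP1, which was called for siARNT in normoxia, are printed here, chr18:59899746-59899947 (plus strand, GRCh38.p14), with the GCGTG match in capitals, 135 bases before the GENCODE 29 start.
PMAIP1 upstream: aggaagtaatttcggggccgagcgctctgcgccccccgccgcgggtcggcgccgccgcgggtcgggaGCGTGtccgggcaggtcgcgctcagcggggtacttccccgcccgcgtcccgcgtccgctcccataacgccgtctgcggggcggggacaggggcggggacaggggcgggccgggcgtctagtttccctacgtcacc
The printed window is 76.2% G or C. A match is a description of letters and shows no binding.

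BIK, a BH3-only protein of the endoplasmic reticulum, was the other member called for siARNT in normoxia. BIK (ENSG00000100290.2, chr22:43110748-43129712, plus strand, GRCh38) was at 4.8, 4.72 and 4.4 CPM in replicates A, B and C of normoxia siControl and 5.88, 7.32 and 6.34 in normoxia siARNT. In hypoxia it was at 5.51, 6.14 and 4.92 in siControl and 3.67, 4.82 and 5.28 in siARNT. The normoxia groups were separate with siARNT above, as 46.5% of all genes were separate, while the hypoxia groups overlapped with the siARNT mean lower. The normoxia change was 0.49 (SE 0.14, edgeR adjusted p 0.035), a fold of 1.4, and the change in hypoxia was -0.27 (edgeR, adjusted p 0.198). The normoxia call of BIK was lost in 10 of 21 alternatives, among them the GC correction (0.23, adjusted p 0.0552) and leaving out any 1 of normoxia siControl replicates A, B and C, normoxia siARNT replicates B and C, hypoxia siControl replicate A and hypoxia siARNT replicate B (adjusted p up to 0.135).

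For BIK, hypoxia gave 0.25 in siControl (edgeR, adjusted p 0.241) and -0.51 in siARNT (edgeR, adjusted p 0.0728), and the groups did not overlap in either, as was so for 46.8% and 22.2% of all genes. The interaction was -0.76 (SE 0.21) and just missed the threshold (edgeR, adjusted p 0.0597). It was called in 7 of 21 alternatives, with adjusted p from 0.00596 to 0.166: DESeq2 gave -0.76 (adjusted p 0.0132), the replicate block -0.75 (adjusted p 0.0486) and the GC correction -0.56 (adjusted p 0.00596), and without hypoxia siARNT replicate C it was -0.87 (adjusted p 0.0332).

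BAD, which binds BCL-XL when it is not phosphorylated, was scarce and uneven. BAD (ENSG00000002330.9, chr11:64269830-64284704, minus strand, GRCh38) was at 1.58, 1.77 and 1.47 CPM in replicates A, B and C of normoxia siControl and 1.85, 4.6 and 2.37 in normoxia siARNT, and at 1.84, 3.12 and 1.4 in hypoxia siControl and 1.68, 1.83 and 3.55 in hypoxia siARNT. Normoxia siARNT replicate B was the highest of the 12, and its group lay wholly above normoxia siControl, as 46.5% of all genes were separate there. The change of 0.87 (SE 0.40) was not called (edgeR, adjusted p 0.131), and with a GC correction it was 0.04 (adjusted p 0.86). GPR137 lies antisense to 23.7% of the exon bases of BAD and held 1992 counts over 12 libraries.

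**Figure D3:**
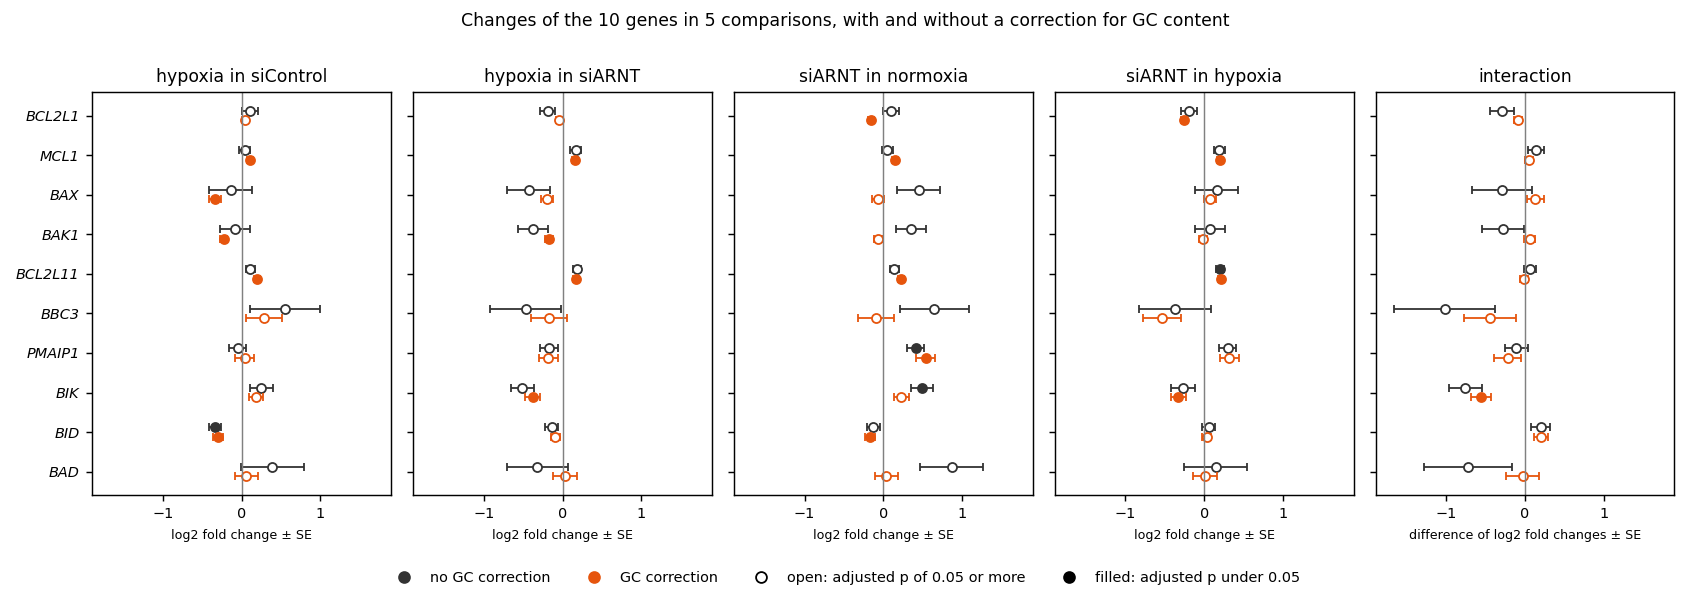
Log2 fold change with its SE (horizontal axis) of each of the 10 genes in each of the 5 comparisons, without and with a GC correction; filled points are calls at an adjusted p under 0.05. The GC correction shortens the error bars of BAX, BAK1, BBC3 and BAD and brings their changes for siARNT in normoxia to between -0.09 and 0.04.

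GC content was taken over all annotated transcripts of a gene, weighted by length. The transcripts of BAD (65.2% G or C), BBC3 (64.5%), BAX (60.4%) and BAK1 (58.7%) had the highest GC content of the 10. Those of BID (51.6%), BCL2L11 (46.8%), MCL1 (45.7%) and PMAIP1 (43.6%) had the lowest. Over 12 libraries, the Pearson correlation of log2 CPM with the GC slope of the library was 0.95 for BAD, 0.89 for BAX and BAK1 and 0.87 for BBC3. It was 0.74 for BIK, 0.73 for BCL2L1, 0.33 for PMAIP1, 0.17 for BCL2L11, 0.03 for BID and -0.30 for MCL1. These correlations are descriptions, since the libraries share their groups, depth and base composition with the slope.

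Fitted with a GC correction per library, edgeR called more of the 10 and more of all genes. For hypoxia in siControl it called 5 of 10 (44.4% of all genes), with BAX, BAK1 and BID lower and BCL2L11 and MCL1 (0.11) higher. For hypoxia in siARNT it called 4 of 10 (23.5% of all genes), with BAK1 (-0.17) and BIK (-0.38) lower and BCL2L11 (0.17) and MCL1 (0.16) higher. For siARNT it called 5 of 10 in normoxia (34.1% of all genes) and 4 of 10 in hypoxia (48.1% of all genes). BCL2L11 and MCL1 were higher and BCL2L1 lower at both oxygen levels (BCL2L1 by -0.16 in normoxia, where it was 0.10 without the correction), with PMAIP1 higher and BID lower (-0.17) in normoxia and BIK lower (-0.33) in hypoxia. For the interaction it called BIK alone of the 10 (20.1% of all genes). Without the pair of libraries of steepest GC slope, edgeR called BID alone for hypoxia in siControl (36.0% of all genes), 0 of 10 for hypoxia in siARNT (3.0%) and PMAIP1 alone for siARNT in normoxia (18.1%). There edgeR gave 4 of the 10 an unadjusted p under 0.05 for hypoxia in siARNT, a count not taken over all genes. For siARNT in hypoxia it then called 5 of 10 (34.2%), with BCL2L11, MCL1 and PMAIP1 higher and BCL2L1 and BBC3 lower, and for the interaction BIK alone (9.39%).

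**Figure D4:**
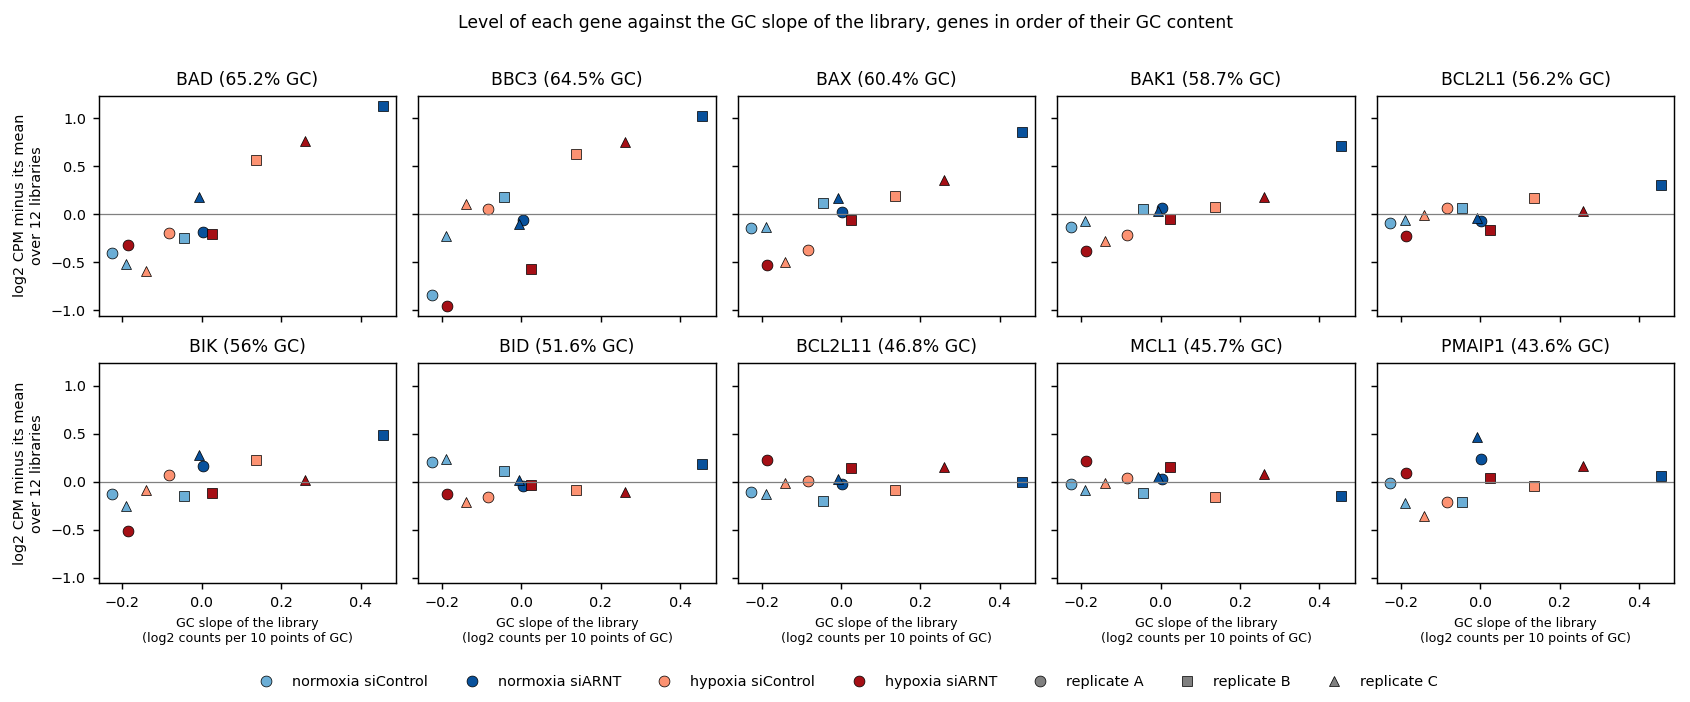
Log2 CPM of each of the 10 genes minus its mean over 12 libraries (vertical axis) against the GC slope of the library (horizontal axis, log2 units per 10 percentage points of GC), with panels ordered by the GC content of the gene. BAD, BBC3, BAX and BAK1 climb with the slope, and BID and MCL1 do not.

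The genes most like BCL2L1, MCL1 and BID over the 12 libraries were taken by the Pearson correlation of log2(CPM + 1) among 9854 genes of at least 5 CPM. For BCL2L1 they were RTL8C (r 0.991), MYOM3 (0.975) and RPS6KA1 (0.974), which have 54.7 to 58.7% GC beside 56.2% for BCL2L1. For MCL1 they were PIK3R1 (0.963), LCORL (0.946) and PPP2R5A (0.946), with 35.5 to 41.0% GC. For BID they were MIF4GD (0.945), ADA (0.944) and GMDS (0.942), with 50.7 to 57.6% GC beside 51.6% for BID. The 12 points share groups, depth and GC slope, so the likeness is a description.

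Outside the 10, lists of other apoptosis genes held 59 genes, of which 56 were tested. Hypoxia in siControl called 15 of 56, 8 up and 7 down, beside 25.3% of all genes, and hypoxia in siARNT called 3, 2 up and 1 down, beside 4.09%. Knockdown of ARNT called 16 in normoxia, 6 up and 10 down, and 25 in hypoxia, 11 up and 14 down, beside 20.2% and 29.1% of all genes, and the interaction called 3, beside 4.69%. The medians lay between -0.06 and 0.03 on the log2 scale. Of the genes named next, E2F1 and RRM2B follow from the rule for named genes, and the others are list members picked after their values were seen.

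The mitophagy receptor BNIP3L, a BH3-only-like protein, had the largest hypoxia response among these lists. With siControl it was at 188 ± 12.7 CPM in normoxia and 586 ± 40.6 in hypoxia, and with siARNT at 166 ± 14.6 and 241 ± 10.8 (SD, n = 3). Hypoxia raised it by 1.64 in siControl (edgeR, adjusted p 2.21e-07) and by 0.54 in siARNT (edgeR, adjusted p 0.00533), and the interaction was -1.10 (edgeR, adjusted p 0.000235). Its relative BNIP3 had 1 count over all 12 libraries, and HRK and BCL2A1 had 2 and 10, so these 3 were not tested. Of the BH3-only list BMF also rose with hypoxia in siControl (0.51, edgeR adjusted p 0.00815).

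Of 7 genes of the release machinery, 3 were called for hypoxia in siControl, 1 up and 2 down, beside 25.3% of all genes. The median log2 fold change of the 7 was -0.01. AIFM1, a mitochondrial flavoprotein with a role in caspase-independent death, fell by 0.69 with hypoxia in siControl (edgeR, adjusted p 1.4e-05), and its interaction was 0.59 (edgeR, adjusted p 0.00344). CYCS, the cytochrome c that the pores release, fell by 0.64 (edgeR, adjusted p 0.00218), though it has processed pseudogenes that could share its reads. APAF1, the apoptosome scaffold, rose by 0.44 (edgeR, adjusted p 0.000765).

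Among the remaining guardians, BCL2L2 fell by 0.32 with siARNT at both oxygen levels (edgeR, adjusted p 0.003 in normoxia and 0.00127 in hypoxia). Of 5 inhibitor-of-apoptosis genes, BIRC3 fell by 0.72 with siARNT in hypoxia (edgeR, adjusted p 0.000253), and BIRC5, a gene of dividing cells, rose by 0.32 in normoxia and 0.47 in hypoxia (edgeR, adjusted p 0.00482 and 0.00018). The death receptor TNFRSF10A rose by 0.34 and 0.39 with siARNT (edgeR, adjusted p 0.00141 and 0.00021).

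Of 8 p53 targets outside the family, knockdown called 5 in normoxia, 1 up and 4 down, and 4 in hypoxia, 1 up and 3 down, beside 20.2% and 29.1% of all genes. In normoxia GDF15, SESN1 and ZMAT3 lost their calls in 8, 12 and 7 of 21 alternatives. RRM2B, a ribonucleotide reductase subunit, fell by 0.89 and 0.68 (edgeR, adjusted p 0.000103 and 0.000261). E2F1, a transcription factor of the cell cycle, was at 15.1 ± 1.22 CPM with siControl and 27.6 ± 8.18 with siARNT in normoxia, and at 11.7 ± 2.56 and 21.5 ± 5.44 in hypoxia (SD, n = 3). It rose by 0.87 and 0.88 with siARNT (edgeR, adjusted p 0.0228 and 0.0142). The normoxia call of E2F1 was lost in 4 of 21 alternatives, with no filter on low counts and without normoxia siARNT replicate B, normoxia siControl replicate A or normoxia siControl replicate C (adjusted p up to 0.0881), and its smallest size was 0.25, with a GC correction. The hypoxia call was lost in 4 of 21 as well, with no filter and without hypoxia siARNT replicate C, hypoxia siControl replicate A or hypoxia siControl replicate C (adjusted p up to 0.0593). FOXO3, a transcription factor known to drive BCL2L11 and BBC3, rose by 0.24 with hypoxia in siControl and fell by 0.51 with siARNT in hypoxia (edgeR, adjusted p 0.00697 and 3.84e-05). Of 5 genes of MCL1 turnover, knockdown called 1 up and 1 down in normoxia and 1 up and 0 down in hypoxia, beside 20.2% and 29.1% of all genes. The ubiquitin ligase component BTRC rose by 0.45 and 0.46 with siARNT (edgeR, adjusted p 0.00484 and 0.00202). FBXW7 was the gene called lower in normoxia, from -0.37 to -0.19 over 21 alternatives, and it lost the call in 3 of them. With siARNT in normoxia 5 of 8 epithelial markers were called higher and 1 lower, beside 9.42% and 10.8% of all genes. Their part in the changes of the family was not tested.

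**Figure D5:**
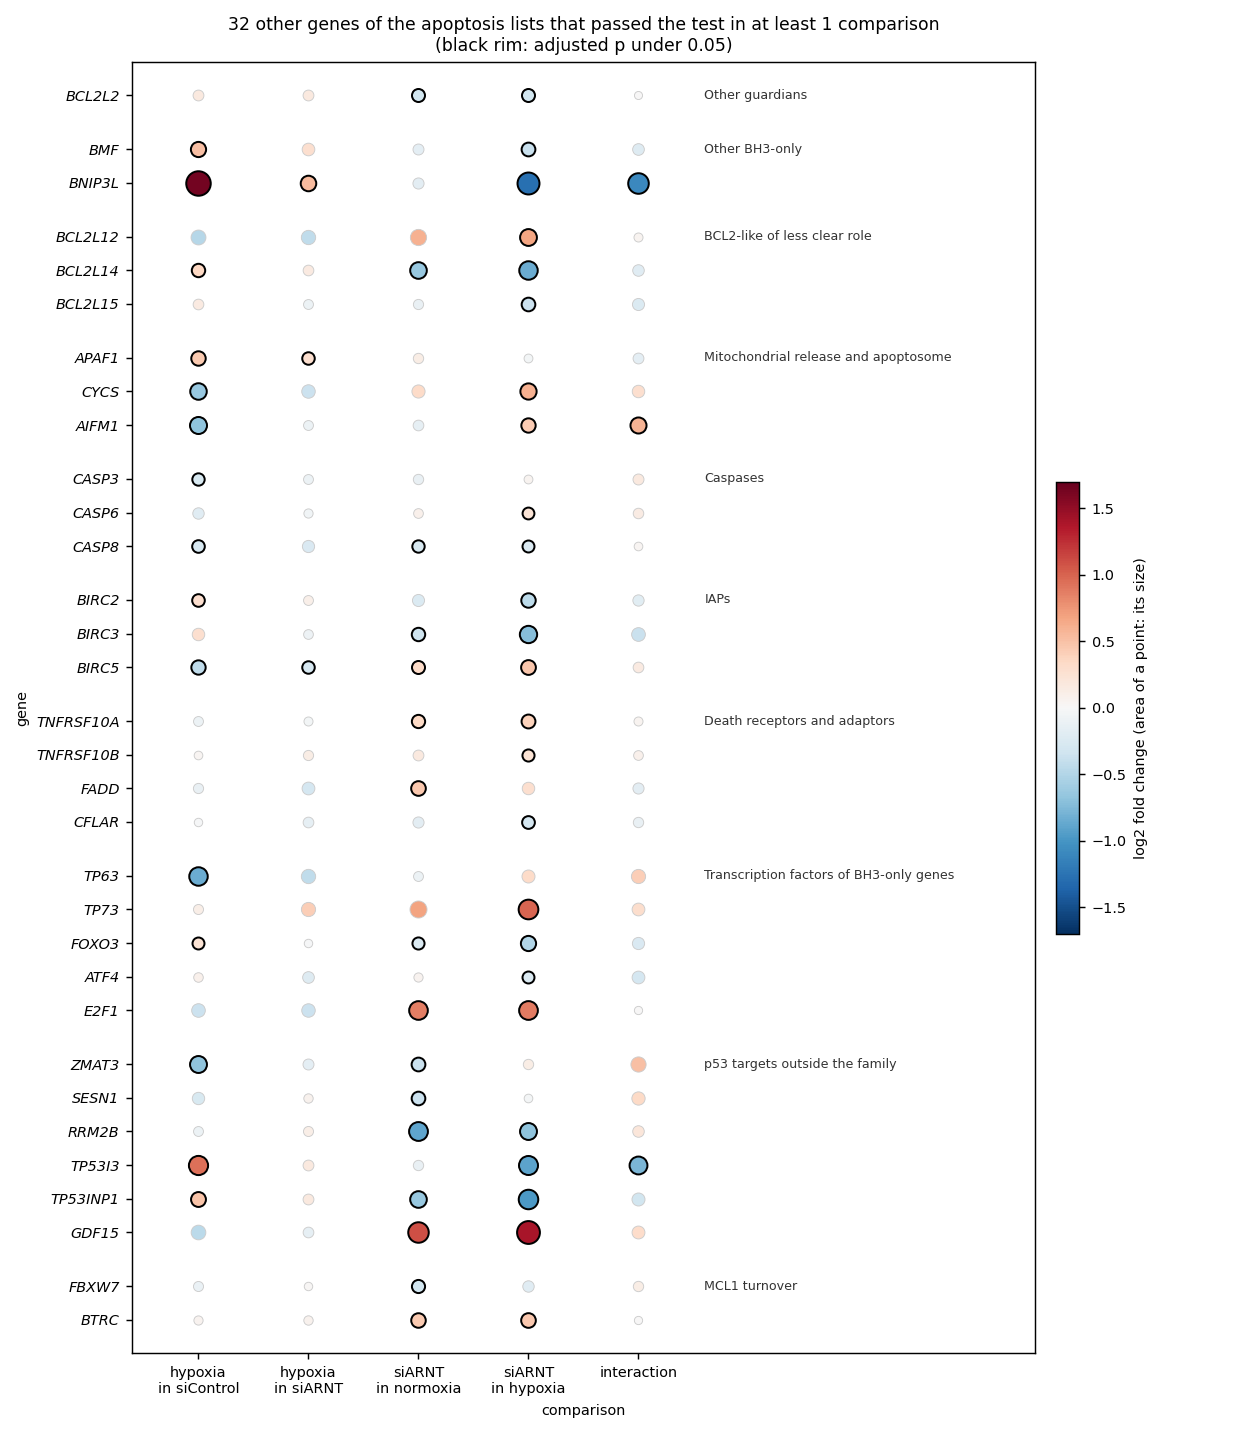
Log2 fold change (color and area of a point, red for higher and blue for lower) of the 32 list genes called in at least 1 of the 5 comparisons (horizontal axis), grouped by list (vertical axis), with a black rim for calls at an adjusted p under 0.05. BNIP3L has the strongest rise with hypoxia in siControl, 1.64, and RRM2B the strongest fall with siARNT in normoxia, -0.89.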

How the data were processed

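Poly(A) RNA of 12 samples was read in stranded, single-end libraries on 3 lanes of a HiSeq, per the labels' protocols. Reads were handled with Trimmomatic and STAR 2.4.2a against GRCh38.p10, per the submitters' processing notes; the counter's settings, its strand mode and its annotation are not given in the sources used here. The deposited gene files hold counts of reads per gene, and lines that name no gene held 22.71 to 25.2% of the reads and were left out. The deposited event files give reads per splice junction, the mean coverage of retained introns as a signal, and the share of the inclusion form as a fraction, per the file headers. Event coordinates did not lie at GRCh38 positions, so exons were placed on GENCODE 29 by their lengths.

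Of 57820 gene IDs, 51996 were paired with a symbol (99.35% of counts). The counts went into edgeR 4.0.16 under R 4.3.3 (TMM, filterByExpr, robust quasi-likelihood fit to all 12 samples, 8 residual degrees of freedom), with p-values adjusted by Benjamini-Hochberg over 16999 genes; standard errors are the log2 fold change over the root of F. Events with at least 10 reads in each sample were tested in edgeR on inclusion and exclusion reads, with a negative binomial dispersion of 0, because an estimated dispersion did not recover changes in simulated data; retained introns entered as rounded mean coverage. Both scripts were tested on simulated data, where the gene test found nearly all changed genes and the event test missed most changed events. The GC correction is an offset per library from a spline of log counts on gene GC content, which 97.27% of tested genes had. DESeq2 1.42.0, limma 3.58.1, other scalings, no filter, leaving out each library, and the replicate letter as a block were the alternatives. Libraries with the same letter deviated together in all 3 pairs for hypoxia in siControl (r 0.543, 0.751 and 0.529) and siARNT in normoxia (0.712, 0.892 and 0.39). For hypoxia in siControl unlike letters reached at most 0.4, so the letters may pair the samples there, from the data alone. In normoxia siControl A went with siARNT C at 0.784 and siControl C with siARNT A at 0.508. A pairing of A and C by letter is therefore not shown for siARNT in normoxia.

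The genes and lists were chosen with earlier results of these data known, and 1 list gene is not reported here. Named genes are the 10, the 3 largest called changes per comparison among list genes of at least 1 CPM (EGLN3, CA9, NDRG1, ANKRD37, RRM2B and E2F1) and the genes most like BCL2L1, MCL1 and the called member for hypoxia in siControl. Promoter sequences are from RefSeq and exon sequences from GENCODE transcripts. The labels name no molecular identifiers, so counting precision covers counting error only.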

Additional observations from a re-analysis of the deposited data

Results flagged for a closer look

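In edgeR none of the 10 genes was called for a difference between siRNA groups in its response to hypoxia, though BIK was in 7 of 21 alternatives, DESeq2 among them (adjusted p 0.0132). Among the apoptosis lists and HIF targets 8 genes were called (edgeR, interaction at an adjusted p under 0.05). They were 3 of the 56 tested genes of the apoptosis lists and 5 of 6 HIF targets, beside 4.69% of all genes. Of 8 epithelial markers 2 were called too. The log2 change with hypoxia was lower in siARNT than in siControl for CA9 (difference -3.02), EGLN3 (-2.57), NDRG1 (-2.32), ADM (-1.93), BNIP3L (-1.10), TP53I3 (-0.78) and VEGFA (-0.77). It was higher for AIFM1 (0.59). TP53I3 and VEGFA lost the call in 9 and 11 of 21 alternatives, and the other 6 in none of them.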

How the results depend on the processing

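The GC correction raised the calls among the 10 genes in each comparison. For the response to hypoxia under siControl and under siARNT, the response to knockdown at 21% and at 1% O2 and the interaction, it called 5, 4, 5, 4 and 1 of the 10 against 1, 0, 2, 1 and 0, and the GC correction with a replicate block 5, 5, 5, 5 and 1. Over all genes the GC correction called 7349, 3886, 5641, 7952 and 3330, and with the block 7540, 4094, 5896, 8142 and 3525, against 4299, 696, 3431, 4948 and 797. The share of rises among calls for hypoxia in siControl went from 41.2% to 51.3% with it. Without filtering low counts the interaction called 1 of the 10 (240 of all genes higher, 339 lower), and hypoxia in siControl 0 (1588 higher, 2015 lower). DESeq2 called 1 for hypoxia in siARNT (524 of all genes higher, 469 lower) and 1 for the interaction (548 higher, 503 lower). Total count scaling called 1 for hypoxia in siARNT (634 higher, 330 lower) and 3 for siARNT in hypoxia (3473 higher, 1973 lower). It called 1495 genes for the interaction. It moved the median of all genes for siARNT in hypoxia to 0.104, and the share of rises from 53.9% to 65.8% for hypoxia in siARNT, from 49.6% to 63.8% for siARNT in hypoxia and from 53.2% to 75.3% for the interaction. With only the 6 samples compared, 1 of the 10 was called for siARNT in normoxia (1058 of all genes higher, 1562 lower). For siARNT in hypoxia 2 were called (2282 of all genes higher, 1953 lower), and 22 genes were called for hypoxia in siARNT. The causes were not tested.

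The replicate block called 2 of the 10 for siARNT in hypoxia (MCL1 in addition to BCL2L11) and 1 for the interaction (BIK), and changed no other call among the 10. A block per siRNA and letter called 136 genes for hypoxia in siARNT and 373 for the interaction. For hypoxia in siARNT the same-letter correlations were 0.914, -0.119 and -0.86, and for siARNT in hypoxia 0.701, -0.075 and -0.729, so the letters do not pair the samples there.

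Signs turned as follows. With the GC correction, and with the GC correction and block, PMAIP1 for hypoxia in siControl was 0.0368 and 0.0347 and BAD for hypoxia in siARNT 0.0251 and 0.0268. For siARNT in normoxia BCL2L1 was -0.162 and -0.162, BAX -0.0685 and -0.0721, BAK1 -0.0678 and -0.068 and BBC3 -0.0904 and -0.0784. BAK1 for siARNT in hypoxia was -0.0059 and -0.0061, and for the interaction BAX was 0.134 and 0.137, BAK1 0.0619 and 0.0619 and BCL2L11 -0.0146 and -0.0148. Without both libraries of steep GC slope, an alternative chosen after seeing the data, 1 of the 10 was called for siARNT in normoxia, 5 for siARNT in hypoxia and 1 for the interaction, and 1612 genes for the interaction. BCL2L1 was then -0.0418 for siARNT in normoxia, and BAX, BAK1 and BAD were -0.079, -0.0659 and -0.257 for siARNT in hypoxia.

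Leaving out 1 library at a time, the calls among the 10 ran from 0 to 1 for hypoxia in siControl, 0 to 2 for siARNT in normoxia, 0 to 3 for siARNT in hypoxia and 0 to 1 for the interaction, and stayed at 0 for hypoxia in siARNT. Calls over all genes ran from 129 (without hypoxia siARNT replicate B) to 707 for hypoxia in siARNT, from 1571 (without normoxia siControl replicate C) to 4148 for siARNT in normoxia and from 272 (without normoxia siControl replicate C) to 1188 for the interaction. They ran from 2873 to 5242 for hypoxia in siControl and from 3537 to 5847 for siARNT in hypoxia. MCL1 ran from -0.0061 to 0.108 and PMAIP1 from -0.125 to 0.0209 for hypoxia in siControl, BAD from -0.74 to 0.16 for hypoxia in siARNT, and BCL2L1 from -0.0423 to 0.17 for siARNT in normoxia. For siARNT in hypoxia BAX ran from -0.085 to 0.381, BAK1 from -0.0718 to 0.21 and BAD from -0.267 to 0.507, and BAX from -0.535 to 0.0215 for the interaction. The log2 odds of MCL1 exon 2 ran from -1.67 to 0.37 for hypoxia in siControl and from -1.95 to 0.0897 for siARNT in normoxia, both lowest without normoxia siControl replicate A. No event of the 10 was called under any of the event alternatives, an estimated dispersion (added after seeing the data) among them.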
